A study of Mus musculus with 24 samples.

Results

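The genes described here are 46 that carry glucose carbon through glycolysis, into the mitochondrion as pyruvate, and round the citric acid cycle. They were taken from a list of symbols, each of which matched 1 mouse Ensembl identifier among the 37991 in the count files. Glycolysis with its lactate step holds 21 of them, pyruvate entry 11 and the citric acid cycle, with the aspartate transaminases, 14. mRNA-seq was done on cerebellum of C57BL/6J males, the standard inbred mouse, with 2 libraries at 79 weeks of age and 2 at 7 weeks, and neither age carried a named treatment or allele. The other 20 samples of the series, made for cytosine methylation and hydroxymethylation, were not analysed here. Whether each library is a separate mouse, a pool or a repeat is not stated in the labels, so the p-values rest on a spread between libraries that could be technical.

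Glycolysis splits glucose into pyruvate in the cytosol and yields a little ATP and NADH. Pyruvate is then either reduced to lactate by lactate dehydrogenase or carried into the mitochondrion, where the pyruvate dehydrogenase complex turns it into acetyl-CoA for the citric acid cycle. In brain, glucose is the main fuel, astrocytes are known for releasing lactate, and neurons are known for oxidising it. Many of these steps have isozymes that differ between cell types.

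Reads assigned to genes numbered 18901921 and 22826993 in the 79-week libraries, against 16367656 and 21124608 in the 7-week ones. All 46 genes passed the low-count filter, with at least 80 reads in each library. Levels are CPM, read counts relative to the TMM-scaled library size, and are compared between ages and not between genes, since they are not divided by length. Their median level was 153 CPM, against 24.2 CPM over the 15292 genes tested, so most of these genes were counted more deeply than the typical gene. Differences are log2 fold changes of 79 over 7 weeks with the standard error (SE) of the fit, tested by edgeR's quasi-likelihood method, and a gene is called when its Benjamini-Hochberg adjusted p over all tested genes is under 0.05. Levels in bulk tissue cannot tell fewer cells of a type apart from less RNA per cell.

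Of the 46 genes, 4 fell and 1 rose at 79 weeks. Pdhb and Dlat, which encode subunits of the pyruvate dehydrogenase complex, Ldha, a lactate dehydrogenase subunit, and Pgk1, a kinase of lower glycolysis, were the genes that fell, and Ldhb, the other main lactate dehydrogenase subunit, rose. The fall of 4 members stands against 4.68% of all tested genes called lower, and the rise of 1 against 4.17% called higher. Together 5 of 46 were called, or 10.9%, and 8.84% of all tested genes were called, so the share among these genes was near that of the whole transcriptome. The changes were small. Every member lay between -0.31 and 0.48 on the log2 scale, none differed by more than 0.5, and 18 differed by less than 0.1.

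The fold change was below 0 for 32 of the 46 genes (69.6%), against 48.3% of all tested genes. Their median was -0.076, against 0.0099 over all tested genes, and the median was -0.073 for glycolysis, -0.042 for pyruvate entry and -0.081 for the citric acid cycle. In 25 genes both 79-week libraries lay below both 7-week libraries, and in 9 genes both lay above. Over all tested genes these shares were 28.7% and 29.1%. At an unadjusted p of 0.05, 18 members were lower and 5 higher, while 13.5% of all tested genes were lower and 13.2% higher. These counts are relative to the 0 that the scaling sets. Library size alone in place of TMM moved the median of all genes to 0.064, and 65.1% of all calls were then higher, against 47.1% with TMM. The members' median less that of all genes was -0.086 under both scalings. A change of scaling shifts every gene by nearly the same amount, so this difference could hardly change and is no added support. With library size scaling the fold change was below 0 for 26 members, and 8 members were lower and 8 higher at an unadjusted p of 0.05, against 9.06% and 18.2% of all genes. In that fit 2 members were called lower (3.17% of all genes) and 3 higher (5.89% of all genes), and the medians became -0.022 over all members and 0.012 for pyruvate entry. Ldha was among the genes lost (edgeR adjusted p = 0.0699).

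**Figure D1:**
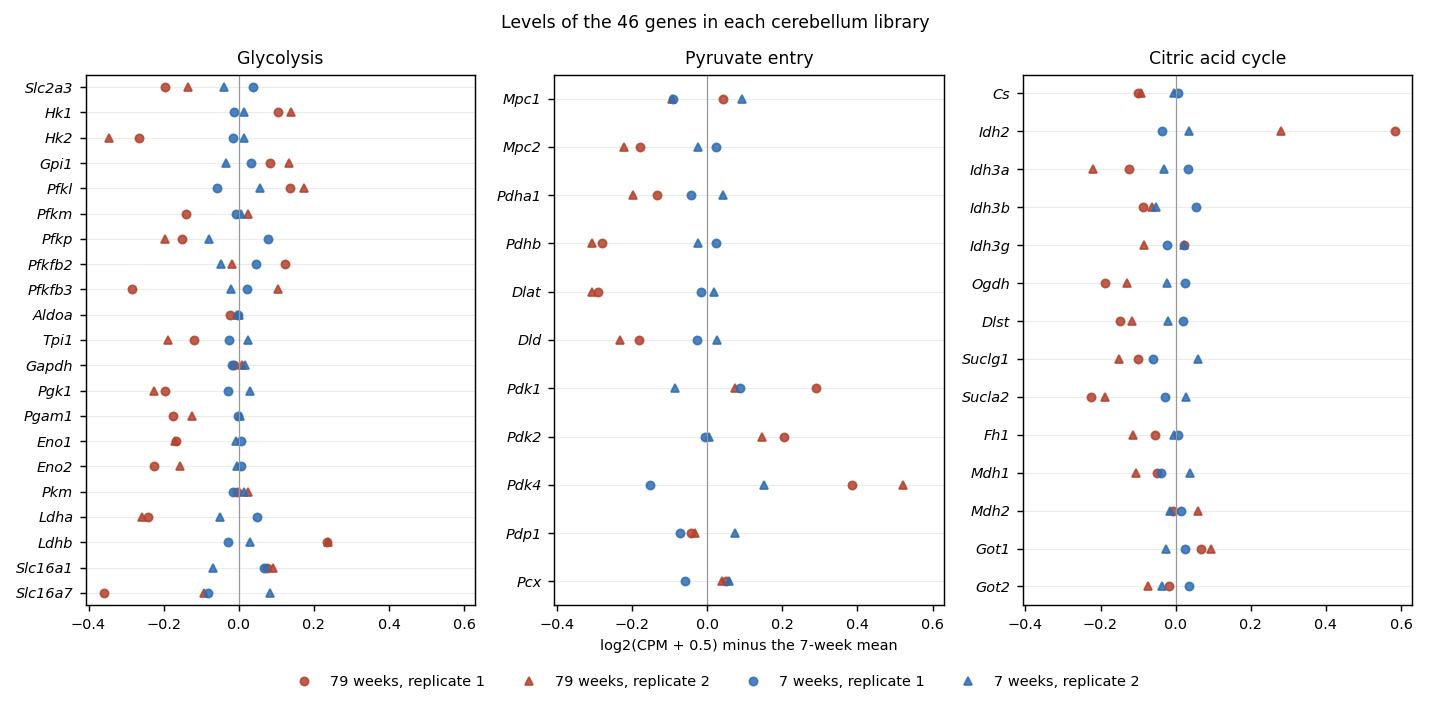
Level of each of the 46 genes in each library, as log2(CPM + 0.5) minus the mean of the 7-week libraries (x axis), by arm of the pathway, with 79 weeks in red and 7 weeks in blue. Most red points lie within 0.3 of the 7-week mean, Pdhb, Dlat, Ldha and Pgk1 lie to its left in both 79-week libraries, and Ldhb, Idh2 and Pdk4 lie to its right.

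**Figure D2:**
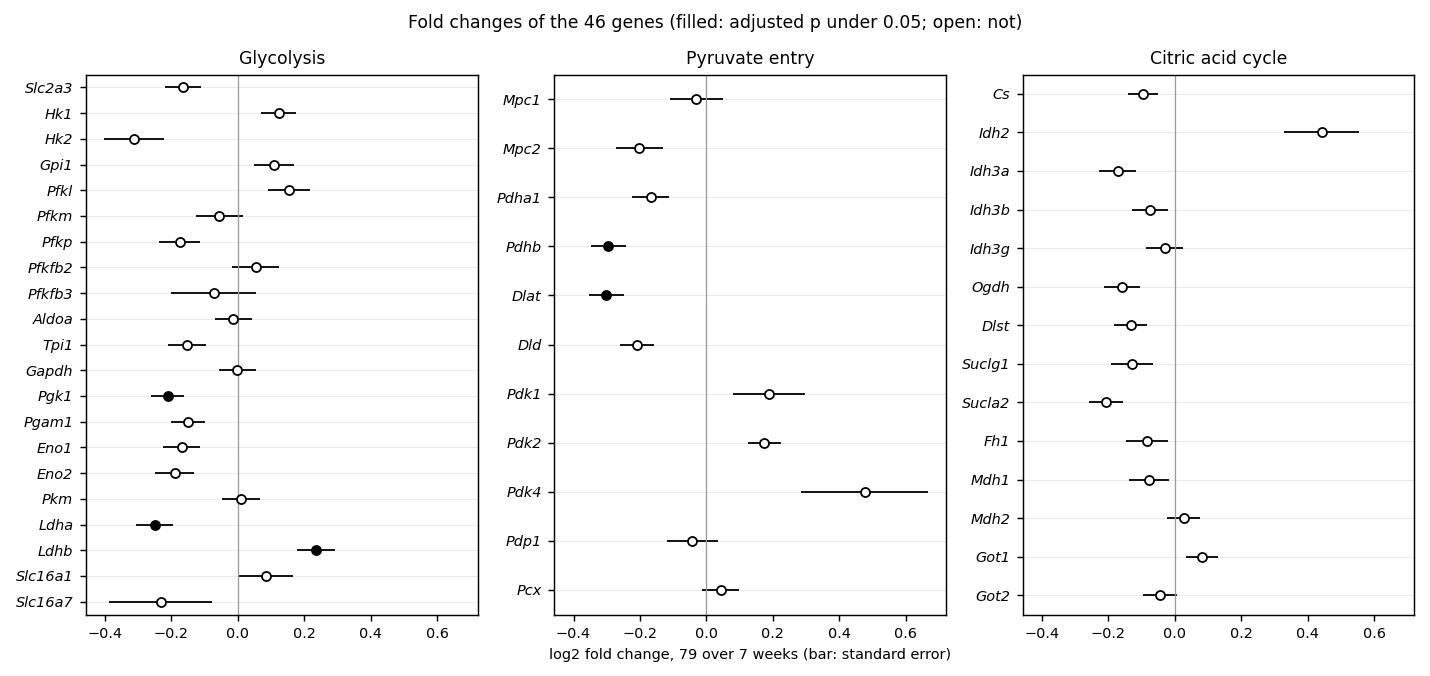
Log2 fold change of 79 over 7 weeks (x axis) for each gene, with its standard error as a bar, where filled points are genes with an adjusted p under 0.05. The 5 filled points are Pgk1, Ldha, Pdhb and Dlat below 0 and Ldhb above 0, and no filled point lies in the citric acid cycle.

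The stretches of 250 bases before the transcription start of the 5 called genes are shown because hypoxia-inducible factor, a known activator of several glycolysis genes, binds the core letters ACGTG or GCGTG. They are from RefSeq on build GRCm38.p6, whereas the counts were made on mm9, and were matched by symbol. They run 5′ to 3′ on the gene's strand, at chr7:46845554-46845803 (plus strand), chr6:142507958-142508207 (minus), chrX:106186850-106187099 (plus), chr14:8172993-8173242 (minus) and chr9:50659781-50660030 (minus). For Ldha the table holds 2 starts and the one it lists first is shown. Capitals mark ACGTG or GCGTG on either strand.
Ldha: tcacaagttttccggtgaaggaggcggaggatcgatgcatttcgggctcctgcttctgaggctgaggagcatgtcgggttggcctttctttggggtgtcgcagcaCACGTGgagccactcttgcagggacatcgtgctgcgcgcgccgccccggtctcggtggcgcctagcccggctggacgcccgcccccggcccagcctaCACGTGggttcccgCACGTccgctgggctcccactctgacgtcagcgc
Ldhb: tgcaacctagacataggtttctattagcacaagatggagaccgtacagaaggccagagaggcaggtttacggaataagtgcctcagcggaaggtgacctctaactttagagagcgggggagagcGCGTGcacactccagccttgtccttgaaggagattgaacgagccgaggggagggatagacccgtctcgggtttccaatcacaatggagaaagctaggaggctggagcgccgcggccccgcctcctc
Pgk1: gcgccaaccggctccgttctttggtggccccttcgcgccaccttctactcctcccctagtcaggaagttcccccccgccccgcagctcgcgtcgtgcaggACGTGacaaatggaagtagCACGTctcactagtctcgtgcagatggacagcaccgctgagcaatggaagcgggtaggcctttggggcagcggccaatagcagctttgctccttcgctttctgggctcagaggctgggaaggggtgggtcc
Pdhb: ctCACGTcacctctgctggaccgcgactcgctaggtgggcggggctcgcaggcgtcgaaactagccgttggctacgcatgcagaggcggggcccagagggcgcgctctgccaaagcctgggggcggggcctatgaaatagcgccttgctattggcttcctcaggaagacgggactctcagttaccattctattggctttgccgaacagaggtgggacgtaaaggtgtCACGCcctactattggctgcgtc
Dlat: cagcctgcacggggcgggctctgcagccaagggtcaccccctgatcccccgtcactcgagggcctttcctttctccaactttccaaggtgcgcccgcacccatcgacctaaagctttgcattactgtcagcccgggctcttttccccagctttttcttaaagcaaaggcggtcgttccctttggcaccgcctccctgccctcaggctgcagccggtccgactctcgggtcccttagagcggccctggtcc
Ldha held 5 matches to ACGTG, of which 4 are the strands of 2 copies of CACGTG, a palindrome that matches on both. Pgk1 held 2 matches to ACGTG, Ldhb held 1 to GCGTG, Pdhb held 1 to each, and Dlat held none. Windows of this length were listed for 42 of the 46 genes. ACGTG was in 14 of those 42 (33.3%) and in 16.6% of the windows of all 27025 genes in the table, and GCGTG was in 22 (52.4%) and in 28.2%. The 27025 genes were not limited to the 15292 tested here, so the shares compare genes of unlike levels. A share over genes of like level or base content was not computed. The letters were found before genes that fell and before the gene that rose. A match is a run of letters and does not show binding.

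Glucose enters neurons largely through the transporter encoded by Slc2a3, and hexokinase traps it in the cell as glucose 6-phosphate. Gpi1, the isomerase that follows, had the most reads of these 4 genes, with 535 and 554 CPM at 79 weeks and 517 and 494 CPM at 7 weeks. The ages did not overlap, but the difference was not called (log2 fold change 0.11, SE 0.06, edgeR adjusted p = 0.289). Hk1, the main hexokinase of brain, averaged 412 ± 6.7 CPM at 79 weeks and 378 ± 4.8 CPM at 7 weeks (SD, n = 2 each, as throughout), and was not called (adjusted p = 0.196 in edgeR). Hk2, an inducible hexokinase, stood at 19.3 ± 0.80 CPM at 79 weeks and 23.9 ± 0.35 CPM at 7 weeks, the lowest fold change of any member (-0.31, SE 0.09), and also missed the threshold (edgeR adjusted p = 0.0746). Slc2a3 averaged 140 ± 4.1 CPM at 79 weeks and 157 ± 6.1 CPM at 7 weeks (edgeR adjusted p = 0.0977). The ages did not overlap for any of these 4 genes, of which 2 were higher and 2 lower at 79 weeks. Over all tested genes, 29.1% lay wholly above and 28.7% wholly below.

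Phosphofructokinase commits sugar to glycolysis and is built from liver, muscle and platelet type subunits, while the Pfkfb enzymes set the level of its activator fructose 2,6-bisphosphate. The muscle type subunit gene Pfkm had 523 and 586 CPM at 79 weeks and 574 and 580 CPM at 7 weeks. Its 7-week libraries lay between the 79-week ones, and it was not called (log2 fold change -0.056, SE 0.07, edgeR adjusted p = 0.659). None of the 5 genes of this step was called. Pfkl, the liver type, averaged 94.5 ± 1.7 CPM at 79 weeks and 84.9 ± 4.8 CPM at 7 weeks, and Pfkp, the platelet type, 238 ± 5.2 CPM at 79 weeks and 269 ± 20.6 CPM at 7 weeks, with the ages apart in each case and in opposite directions. Pfkfb2 and Pfkfb3 overlapped between ages, and Pfkfb3 differed within 79 weeks, at 27.3 and 35.9 CPM.

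Lower glycolysis, from aldolase to pyruvate kinase, contained 1 called gene of 8. Gapdh, which oxidises glyceraldehyde 3-phosphate and is often used as a reference gene, had 1648 and 1672 CPM at 79 weeks and 1643 and 1682 CPM at 7 weeks. These libraries overlapped, with a log2 fold change of -0.0018 (SE 0.06, edgeR adjusted p = 0.986). Pgk1 encodes the kinase after Gapdh, the first of the pathway to make ATP. It had 177 and 173 CPM at 79 weeks and 198 and 206 CPM at 7 weeks. Both 79-week libraries were below both 7-week libraries, and Pgk1 fell by 0.21 on the log2 scale (SE 0.05, adjusted p = 0.0416 in edgeR). The call was close to the threshold, since the adjusted p was 0.0541 with limma-voom, 0.0509 with DESeq2 and 0.0911 with library size scaling, all on the same side of 0.

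Around Pgk1, the lower glycolysis genes differed in how far they moved. The enolases Eno1, the general form, and Eno2, the neuronal form, were at 581 ± 0.98 and 676.5 ± 23.3 CPM at 79 weeks, and at 653 ± 4.2 and 772 ± 3.6 CPM at 7 weeks. Neither was called by edgeR (adjusted p = 0.103 for Eno1 and 0.088 for Eno2), though DESeq2 called both. Tpi1 and Pgam1, an isomerase and a mutase, had log2 fold changes of -0.15 each (edgeR adjusted p = 0.134 and 0.113). Aldoa, an aldolase, and Pkm, pyruvate kinase, had log2 fold changes of -0.014 and 0.0097, with SEs of 0.06. Thus 3 genes, Aldoa, Gapdh and Pkm, differed by under 1% between ages, and the other 5 were lower by 9.91% to 13.6%, of which Pgk1 alone was called by edgeR with all libraries.

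Lactate dehydrogenase is a tetramer of subunits from Ldha, the form known for turning pyruvate into lactate, and Ldhb, the form known from heart and from oxidative cells. Ldha had 114 and 113 CPM at 79 weeks and 140 and 131 CPM at 7 weeks. It fell by 0.25 on the log2 scale (SE 0.06, adjusted p = 0.0357 in edgeR). Ldhb had 538 and 539 CPM at 79 weeks and 448 and 467 CPM at 7 weeks. Its level rose by 17.8%, a log2 fold change of 0.24 (SE 0.06), with an edgeR adjusted p of 0.0463. The ages did not overlap for either gene, and the 79-week libraries lay within 2 CPM of each other for each.

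Because the pair moved in opposite directions, the ratio of their counts within a library shows the shift without any scaling factor. Ldhb had 4.70 and 4.77 reads per read of Ldha at 79 weeks, against 3.20 and 3.57 at 7 weeks. The log2 ratio averaged 2.24 ± 0.014 at 79 weeks and 1.76 ± 0.11 at 7 weeks, a difference of 0.49, and the ages did not overlap. An exact two-sided permutation test of 2 libraries against 2 cannot go below p = 0.333, which is the value here (0.481 after Benjamini-Hochberg adjustment over the 13 ratios computed). With any 1 library left out the difference stayed between 0.41 and 0.57. It was the largest of the 13 in size, followed by Hk2 over Hk1, with -0.44 (log2 ratios of -4.36 and -4.48 at 79 weeks and -3.98 and -3.98 at 7 weeks). The ratio of the enolases Eno2 over Eno1 overlapped between ages, with a difference of -0.022, as both genes stood lower by like amounts. The ages were apart in 9 of the 13 ratios, so a lack of overlap was common among them.

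**Figure D3:**
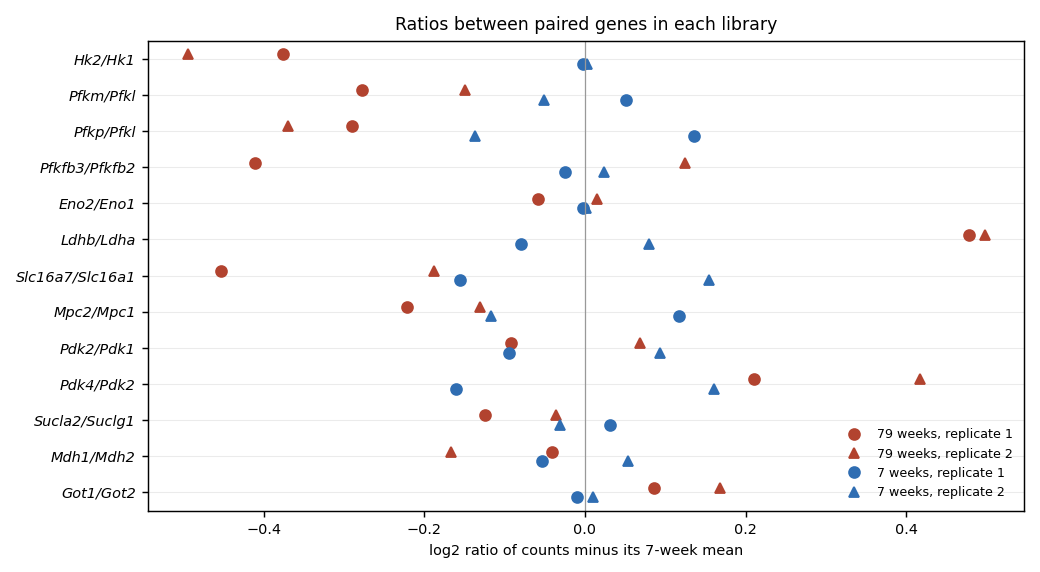
Log2 ratio of the counts of paired genes in each library, less its 7-week mean (x axis), with 79 weeks in red and 7 weeks in blue and 1 row for each of 13 ratios. Ldhb over Ldha lies 0.49 to the right at 79 weeks with its libraries close together, Hk2 over Hk1 lies 0.44 to the left, and Eno2 over Eno1 lies at 0.

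Lactate and pyruvate cross membranes on monocarboxylate transporters. Slc16a1, whose product is known from glia and endothelium, averaged 39.3 ± 0.31 CPM at 79 weeks and 37.2 ± 2.5 CPM at 7 weeks, and Slc16a7, known from neurons, 9.81 ± 1.3 CPM at 79 weeks and 11.5 ± 0.97 CPM at 7 weeks. Neither was called (edgeR adjusted p = 0.566 for Slc16a1 and 0.384 for Slc16a7).

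Pyruvate enters the mitochondrion through a carrier made of Mpc1 and Mpc2. Mpc1 had 94.3 and 85.9 CPM at 79 weeks and 86.0 and 97.7 CPM at 7 weeks, with the ages overlapping. Mpc2 averaged 44.1 ± 0.93 CPM at 79 weeks and 50.7 ± 1.2 CPM at 7 weeks and was not called (edgeR adjusted p = 0.122). The Mpc1 counts carry a further uncertainty, as a processed copy, Mpc1-ps, held 117 to 179 reads, or 6.43% to 9.00% of those of Mpc1. The other 7 named copies of members in the files (of Eno1, Pgk1, Got2, Pgam1 and Ldha) held at most 17 reads each in any library, or under 0.59% of the member. Reads placed at more than 1 site, 8.02% to 8.25% of each library, were not counted for any gene, so members with near-identical copies may be undercounted.

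The pyruvate dehydrogenase complex joins 3 enzymes, a dehydrogenase of alpha and beta chains (Pdha1 and Pdhb), a transacetylase (Dlat) and a dihydrolipoyl dehydrogenase (Dld). Pdhb had 109 and 107 CPM at 79 weeks and 135 and 130 CPM at 7 weeks. It fell by 0.29 on the log2 scale (SE 0.05, adjusted p = 0.0178 in edgeR). Dlat had 88.2 and 87.4 CPM at 79 weeks and 107 and 109 CPM at 7 weeks. It fell by 0.30 (SE 0.05, adjusted p = 0.0188 in edgeR). Each is thus about 18.5% to 18.8% lower at 79 weeks, with no overlap between ages.

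The remaining subunits stood on the same side without being called. Pdha1, with the most reads of the complex, had 157 and 150 CPM at 79 weeks and 168 and 178 CPM at 7 weeks (log2 fold change -0.17, SE 0.05, edgeR adjusted p = 0.0977). Dld, which the complex shares with 2-oxoglutarate dehydrogenase, averaged 117 ± 2.8 CPM at 79 weeks and 135 ± 3.6 CPM at 7 weeks, just short of the threshold (-0.21, SE 0.05, edgeR adjusted p = 0.0518). Another component, outside the 46 genes, the binding protein gene Pdhx, fell by 0.29 (SE 0.07, adjusted p = 0.048 in edgeR), with 44.9 and 43.3 CPM at 79 weeks and 53.9 and 53.6 CPM at 7 weeks. In all 5 genes the 79-week libraries lay below the 7-week ones, as they did in 28.7% of all tested genes. Pdhx was not called by DESeq2 (adjusted p = 0.11) or with library size scaling (adjusted p = 0.0861).

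Pyruvate dehydrogenase kinases switch the complex off by phosphorylation and the phosphatase encoded by Pdp1 switches it on. Pdk2, with the most reads of these, had 293 and 281 CPM at 79 weeks and 253 and 255 CPM at 7 weeks, without overlap. Its log2 fold change of 0.17 (SE 0.05) was not called with TMM scaling (edgeR adjusted p = 0.0676) and was called with library size scaling and with robust dispersion. Pdk4, a kinase induced by fasting in other tissues, averaged 7.86 ± 0.56 CPM at 79 weeks and 5.63 ± 0.91 CPM at 7 weeks, the highest fold change of any member (0.48) with the largest SE (0.19, edgeR adjusted p = 0.163). Pdk1 overlapped between ages (0.19, SE 0.11, edgeR adjusted p = 0.32), as did Pdp1 (-0.042, SE 0.08, edgeR adjusted p = 0.778). Pdk3, outside the 46, stood at 25.9 ± 0.076 CPM at 79 weeks and 28.8 ± 1.4 CPM at 7 weeks (edgeR adjusted p = 0.29). Unlike Pdk2, it was lower at 79 weeks, also without overlap. None of the kinase or phosphatase genes was called, so of this arm the subunits of the complex alone held called genes. Pcx, pyruvate carboxylase, which refills the cycle with oxaloacetate and is known from astrocytes, had 141 and 140 CPM at 79 weeks and 130 and 141 CPM at 7 weeks (0.043, SE 0.06, edgeR adjusted p = 0.677).

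**Figure D4:**
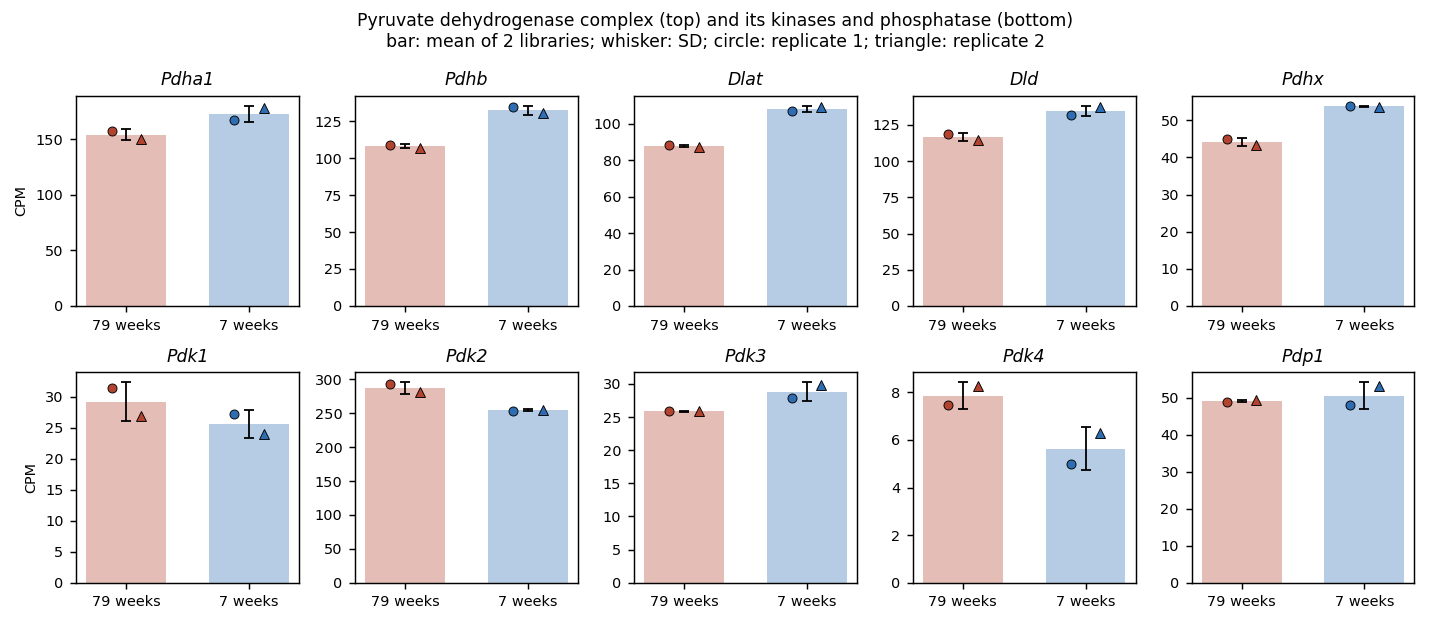
CPM of 5 genes of the pyruvate dehydrogenase complex (top) and of 4 kinase genes and 1 phosphatase gene (bottom), where bars are means of 2 libraries, whiskers are SD and points are libraries, with 79 weeks on the left and 7 weeks on the right of each panel. All 5 top panels have both 79-week points below both 7-week points. In the bottom row Pdk2 and Pdk4 have them above, Pdk3 has them below, and Pdk1 and Pdp1 overlap.

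In the citric acid cycle 0 of 14 genes were called by edgeR. At an unadjusted p under 0.05 there were 5, and 26.7% of all tested genes reached it. Alternatives called up to 3 of these genes, Idh2, Idh3a and Sucla2. All 3 were called only without the low-count filter, where 13.1% of all genes were called. DESeq2 called Idh2 alone, with 8.28% of all genes called. Ogdh, the first subunit of 2-oxoglutarate dehydrogenase, had the most reads between citrate and succinate, with 331.5 and 345 CPM at 79 weeks and 384 and 372 CPM at 7 weeks (log2 fold change -0.16, SE 0.05, edgeR adjusted p = 0.115). The ages were apart, and 8 of the 9 genes from Cs to Sucla2 had a fold change below 0. Sucla2, the ATP-forming beta subunit of succinyl-CoA synthetase, averaged 119 ± 2.1 CPM at 79 weeks and 138 ± 3.9 CPM at 7 weeks (-0.21, SE 0.05, edgeR adjusted p = 0.0502). Cs, citrate synthase, averaged 247 ± 0.77 CPM at 79 weeks and 265 ± 1.4 CPM at 7 weeks (-0.096, SE 0.05, edgeR adjusted p = 0.225).

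Idh2, the mitochondrial isocitrate dehydrogenase that makes NADPH, went the other way, and its values are given because they stood apart once seen. It had 44.5 and 36.0 CPM at 79 weeks and 28.8 and 30.3 CPM at 7 weeks (0.44, SE 0.11, edgeR adjusted p = 0.054). The 79-week libraries differed from each other more than the 7-week ones. Without replicate 1 at 79 weeks the fold change was 0.28 (adjusted p = 0.116), and without replicate 2 it was 0.58 (adjusted p = 0.00053, both in edgeR). Replicate 1 at 79 weeks is also the library with choroid plexus markers described below, and their part in the level of Idh2 was not tested. The NAD-linked isocitrate dehydrogenase subunits Idh3a, Idh3b and Idh3g had fold changes of -0.17, -0.075 and -0.031 and none was called by edgeR with TMM scaling and its low-count filter.

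The last steps, fumarase and malate dehydrogenase, and the aspartate transaminases that with malate dehydrogenase carry NADH into the mitochondrion, had fold changes from -0.084 to 0.082. Mdh1, the cytosolic malate dehydrogenase, had 464 and 446 CPM at 79 weeks and 468 and 493 CPM at 7 weeks (edgeR adjusted p = 0.454). Got1, the cytosolic transaminase, had 250.4 and 255 CPM at 79 weeks and 243 and 234.5 CPM at 7 weeks (edgeR adjusted p = 0.326). The ages were apart for each of these genes, but by less than the test could call. Fh1, Mdh2 and Got2 were not called (edgeR adjusted p = 0.437, 0.774 and 0.622).

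Other genes of the same pathways, from lists drawn up beside the 46, moved in both directions. Among 18 further glycolysis genes, 11 were tested and 1 rose. It was Pfkfb4, a bifunctional enzyme of fructose 2,6-bisphosphate, at 24.5 ± 0.13 CPM at 79 weeks and 19.1 ± 0.51 CPM at 7 weeks (log2 fold change 0.36, SE 0.09, adjusted p = 0.0473 in edgeR, but 0.18 in DESeq2). The median of the 11 was 0.36, and in 7 both 79-week libraries lay above both 7-week ones, with 0 below. Over all tested genes these shares were 29.1% and 28.7%. Several of the 11 had few reads, but Aldoc, an aldolase, had 2547 and 2502 CPM at 79 weeks. At 7 weeks it had 1611 and 2301 CPM, which differed from each other, and it was not called (0.37, SE 0.14, edgeR adjusted p = 0.151). Among 14 further genes of lactate and pyruvate, 11 were tested and Pdhx alone was called, with a median of -0.079. Fbp2, Pgk2, Pklr, Ldhc and Csl had 0 reads in every library, which allows levels up to 0.131 to 0.183 CPM on counting error only.

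Among 25 further genes of the citric acid cycle and its shuttles, 24 were tested, 3 rose and 1 fell, with a median of -0.02. Gpd1, the cytosolic glycerol 3-phosphate dehydrogenase of the glycerol phosphate shuttle, had 190.2 and 202 CPM at 79 weeks and 259 and 264 CPM at 7 weeks. It fell by 0.41 on the log2 scale (SE 0.05, adjusted p = 0.00741 in edgeR). Suclg2, the GTP-forming beta subunit of succinyl-CoA synthetase that takes the place of Sucla2 beside Suclg1, rose 1.39-fold, with 19.7 and 19.8 CPM at 79 weeks and 13.8 and 14.5 CPM at 7 weeks (SE 0.1 on the log2 scale, adjusted p = 0.0293 in edgeR, but 0.0889 in DESeq2). Dhtkd1, a relative of Ogdh that acts in lysine breakdown, rose 1.94-fold, with 15.1 and 12.1 CPM at 79 weeks and 6.60 and 7.38 CPM at 7 weeks (adjusted p = 0.017 in edgeR). Me3, a mitochondrial malic enzyme, rose 1.32-fold, at 56.6 ± 0.66 CPM at 79 weeks and 42.9 ± 2.9 CPM at 7 weeks (adjusted p = 0.0236 in edgeR). The shares called in these lists were 9.09%, 9.09% and 16.7%, beside the 8.84% of all tested genes.

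The libraries carried the markers of cerebellum, such as Gabra6 of granule neurons (591 and 591.5 CPM at 79 weeks, 888 and 869 CPM at 7 weeks) and Pcp2 of Purkinje cells (350.5 and 379 CPM at 79 weeks, 385.5 and 367 CPM at 7 weeks). Cell type markers also moved with age. The counts called here and in the next paragraph stand beside 4.68% of all tested genes called lower and 4.17% called higher. Summed markers of granule neurons ran from 6560 to 6929 CPM at 79 weeks and from 8080 to 8288 CPM at 7 weeks, with 6 of 12 called lower and 1 higher. Purkinje cell markers summed to 9119 to 9357 CPM at 79 weeks and 11144 to 11159 CPM at 7 weeks (6 of 10 lower). Oligodendrocyte markers summed to 3814 to 5370 CPM at 79 weeks and 5972 to 6351 CPM at 7 weeks (5 of 10 lower). Microglia markers summed to 231 to 288 CPM at 79 weeks and 133 to 147 CPM at 7 weeks (7 of 10 higher). Bergmann glia and astrocyte markers summed to 4022 to 4334 CPM at 79 weeks and 4348 to 4682 CPM at 7 weeks (2 of 10 higher, 1 lower).

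Choroid plexus markers summed to 5411 and 41.3 CPM in 79-week replicates 1 and 2 and to 17.8 and 32.1 CPM at 7 weeks, with Ttr alone at 5061 CPM in that first library (0 of 7 tested called). Ependymal markers summed to 209 and 141 CPM at 79 weeks and to 119 and 127 CPM at 7 weeks (2 of 6 tested higher). Meninges markers summed to 391 and 184 CPM at 79 weeks and to 199.5 and 224 CPM at 7 weeks (1 of 10 lower). Endothelial and pericyte markers summed to 293 to 333 CPM at 79 weeks and 306 to 315 CPM at 7 weeks (1 of 10 lower), and red blood cell markers to 22.1 to 26.0 CPM at 79 weeks and 13.5 to 18.5 CPM at 7 weeks (0 of 4 called). No marker in these lists had 0 reads in all 4 libraries. Their part in the members' differences was not tested. Without the library high in choroid plexus markers, the log2 fold changes of Pdhb, Dlat, Ldha, Pgk1 and Ldhb were -0.31, -0.31, -0.26, -0.23 and 0.24, and Ldha and Pgk1 were no longer called (edgeR adjusted p = 0.0537 and 0.072).

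The direction of the 5 called genes held in each of the 18 alternative fits, and the calls did not. As the ages did not overlap for any of the 5, leaving out a library could hardly reverse a direction. The constant direction is therefore no added support. DESeq2 called 7 members (8.28% of all genes), among them Ldha, Ldhb, Pdhb and Dlat. Leaving out a library leaves 1 at that age, whose spread is taken from the other age. Without 79-week replicate 1, Ldhb, Pdhb and Dlat were still called by edgeR (3 of 46, and 9.96% of all genes). Without 79-week replicate 2 the same 3 were called with Eno2 and Idh2 (15.4% of all genes). Without 7-week replicate 2, 0 members were called (1.11% of all genes), while 14 were lower and 5 higher at an unadjusted p of 0.05 (41.3% of members, and 20.1% of all genes). Without 7-week replicate 1 edgeR called 0 genes of any kind, and at an unadjusted p of 0.05 it gave 10 members lower and 3 higher (28.3% of members, and 16.1% of all genes). DESeq2 called 0 members with any library left out, while it called 2.41% and 4.15% of all genes without 79-week replicates 1 and 2, and 1.47% and 2.72% without 7-week replicates 1 and 2. At an unadjusted p of 0.05 it gave 7 and 9 members without 79-week replicates 1 and 2 (8.85% and 12% of all genes). Without 7-week replicates 1 and 2 it gave 7 and 6 members (7.09% and 9.01% of all genes). Pgk1 and Ldha missed the threshold with any 1 library left out, at edgeR adjusted p from 0.072 to 0.177 for Pgk1 and from 0.0533 to 0.221 for Ldha. Of the called genes named outside the 46, none was called by edgeR without either 7-week library, Pfkfb4 was lost without either 79-week library, and Pdhx was lost without 79-week replicate 2.

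**Figure D5:**
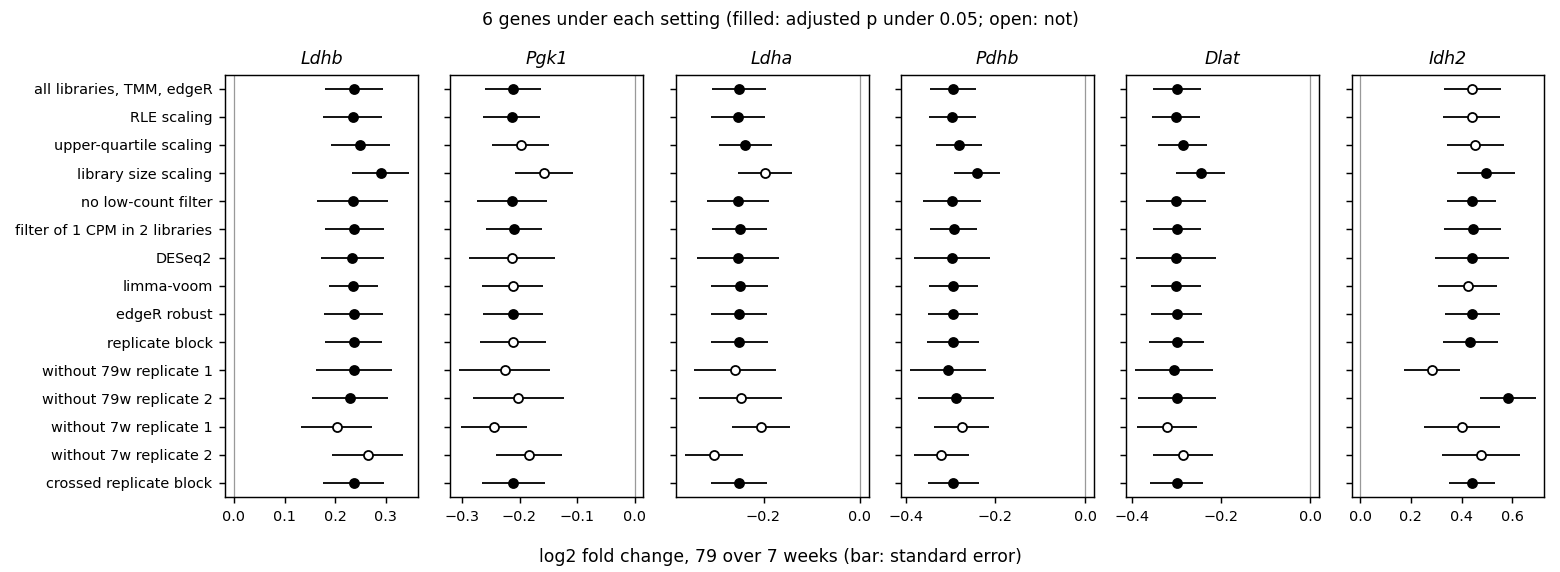
Log2 fold change of 79 over 7 weeks (x axis) with its standard error for the 5 called genes and Idh2, in 1 row for each scaling, filter or tool and for each library left out in edgeR, where filled points have an adjusted p under 0.05. Every point keeps its side of 0, Pdhb and Dlat are filled in all plotted rows but those that leave out a 7-week library (DESeq2 with a library left out, not plotted, called neither), and Idh2 moves between 0.28 and 0.58 with the 79-week library left out.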

How the data were processed

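Cerebellar RNA was extracted in Trizol, and the library kit was Universal Plus mRNA-Seq, per the labels' protocols. The authors deposited raw counts of reads for each Ensembl gene. The submitters' processing notes name cutadapt, STAR and HTSeq, and the mouse build mm9, without versions. No annotation release or strand setting is given in the sources used here, so reads of a gene and of an antisense partner cannot be told apart. HTSeq's summary lines were taken off before totals were formed. Symbols came from a table pairing 32919 of 37991 identifiers.

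In R 4.3.3 with edgeR 4.0.16, low genes were dropped with filterByExpr (at least 10 reads, 15 in total), and libraries were scaled by TMM (factors 0.9812 to 1.023) and compared by the quasi-likelihood F test, 79 minus 7 weeks, without covariates, with Benjamini-Hochberg adjustment at 0.05. SEs were the fold change divided by the root of F. The fitting code was run on simulated counts with the same spread for every gene, smaller than the common spread fitted here. That run does not check the error rate of the calls. Other settings tried were scaling by library size, RLE or upper quartile, no filter, 1 CPM in 2 libraries, DESeq2 1.42.0, limma-voom 3.58.1, robust dispersion, a replicate block and each library left out. A crossed block and DESeq2 with a library left out were added after seeing the data. All 46 genes could be named. Of 6 other lists (96 genes), up to 4 called genes each were named by smallest adjusted p, or the 2 with most reads where none was called. There were 10 marker lists (98 genes, of which 2 were not found). Pcp2, Gabra6, Ttr, Pdk3, Aldoc and Idh2 were named outside this rule, as were the genes without reads, Fbp2, Pgk2, Pklr, Ldhc and Csl. The genes and lists were chosen with earlier results of these data known.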

Additional observations from a re-analysis of the deposited data

How the results depend on the processing

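None of the 5 called genes changed direction under any alternative, which the gap between ages made hardly possible with a library left out. Of the 46 genes, 12 changed sign in at least 1 alternative, none of those 5. Members called higher and lower were 3 and 2 with library size scaling (9.06% of all genes called) and 2 and 9 without the low-count filter (13.1%). They were 2 and 6 with a filter of 1 CPM in 2 libraries (10.2%) and 2 and 5 with DESeq2 (8.28%). With the crossed block they were 2 and 6 (13.2%), and with robust dispersion 3 and 6 (11.4%). The members' median was -0.022 with library size scaling. Over all genes, 1602 were higher and 1449 lower without the filter, and 1010 were higher and 1004 lower with the crossed block. With a library left out in edgeR or DESeq2, genes called ranged from 0 to 1360 higher and 0 to 1065 lower, members from 0 to 2 higher and 0 to 3 lower, and the pyruvate entry median from -0.124 to 0.033 (-0.122 without 7-week replicate 1 in edgeR). In DESeq2 alone, the genes higher and lower were 145 and 237 when 79-week replicate 1 was left out, 337 and 317 for 79-week replicate 2, 81 and 157 for 7-week replicate 1, and 173 and 257 for 7-week replicate 2. The replicate numbers do not pair the libraries by the labels, and the replicate differences of the 2 ages correlated at -0.106 over genes. The replicate block called 2 members higher and 3 lower, losing Pgk1 and gaining Idh2. The cause of these differences was not tested. With 2 libraries per age and SEs near 0.056, changes under about 0.2 on the log2 scale were mostly not detectable.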

Other observations

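Glycogen and pentose phosphate genes store glucose or turn it to NADPH and ribose. They were called in 2 of 15 cases (13.3%, beside 8.84% of all tested genes), both higher, with a median log2 fold change of 0.14. Tkt, the transketolase that links the pentose phosphate pathway back to glycolysis, had 141 and 130.4 CPM at 79 weeks and 93.8 and 104 CPM at 7 weeks, and rose 1.37-fold (SE 0.07 on the log2 scale, adjusted p = 0.012 in edgeR). Pygm, a glycogen phosphorylase, had 101 and 94.5 CPM at 79 weeks and 77.8 and 79.7 CPM at 7 weeks, and rose 1.24-fold (SE 0.06, adjusted p = 0.0247 in edgeR). The ages did not overlap for either gene, and edgeR did not call Pygm without 79-week replicate 1, nor either gene without a 7-week library.

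Of 12 genes known to be induced by low oxygen outside glycolysis, 0 rose and 1 fell (median 0.042). That is 8.33% called, near the 8.84% of all tested genes. Car9, a carbonic anhydrase, had 5.59 and 4.97 CPM at 79 weeks and 14.3 and 10.5 CPM at 7 weeks, and fell by 1.22 on the log2 scale (SE 0.2, adjusted p = 0.0145 in edgeR). Of 12 transcription regulators of energy metabolism, 1 rose and 0 fell (again 8.33% called, median -0.091). Foxo1, a factor held out of the nucleus by insulin signalling, had 43.2 and 48.6 CPM at 79 weeks and 26.7 and 34.3 CPM at 7 weeks, and rose 1.5-fold (SE 0.13 on the log2 scale, adjusted p = 0.0319 in edgeR). Car9 and Foxo1 were also not called by edgeR without either 7-week library.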
